A study of Homo sapiens with 10 samples.

Results

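The 40 cell cycle genes described here were a list of human genes that dividing cells switch on, out of 36601 human genes counted in the files. The list holds 16 S-phase genes, 23 G2/M genes and UBE2T, a ubiquitin-conjugating enzyme of DNA crosslink repair that was put in neither phase. They were measured by single-cell RNA sequencing in 49989 human cells, of which 49988 came from 26 mice that could be fitted. The cells grew from microglial progenitors made from the human embryonic stem cell line WA09 (H9) and grafted into the brains of newborn mice. A macrophage cluster, which the study removed before its comparison, was not removed here. All hosts lacked Rag2 and Il2rg, which leaves them without lymphocytes that would reject the graft, carried human CSF1 in place of the mouse growth factor, and carried the App NL-G-F alleles, which make mice deposit amyloid-β. FIRE mice (App NL-G-F Csf1r ΔFIRE/ΔFIRE, labelled APP-NLGF x FIRE KO) also lacked the FIRE enhancer of Csf1r and so had no microglia of their own. In the other hosts, labelled APP-NLGF, that enhancer was intact; the methods name the CSF1R inhibitor BLZ945 as the agent that depleted mouse microglia in App NL-G-F hosts grafted for a different assay, and do not describe these hosts separately. From an age of 4 months the mice received 10 mg/kg of Lecanemab, an antibody against amyloid-β, or of human IgG1 as control, once a week for 8 weeks. The groups were 6 FIRE mice given Lecanemab, 5 FIRE mice given IgG1, 7 mice with the enhancer intact given Lecanemab and 8 given IgG1. CD11b+ hCD45+ cells were sorted, tagged by mouse with hashtag antibodies and sequenced as pools: pool A (10 mice, libraries 1 and 2), pool B (6 mice, library 3) and pool C (10 mice, libraries 4 and 5).

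As background, a cell that leaves rest first makes D-type cyclins, whose kinases release the E2F transcription factors from the retinoblastoma protein. E2F then switches on the S-phase genes, which load the replicative helicase, make nucleotides and copy DNA. The G2/M genes follow later through the DREAM and MuvB complexes with B-MYB and FOXM1, which act at a promoter element called the CHR, and they build the spindle, separate the chromosomes and divide the cell. Microglia renew themselves in the brain by such division, mostly at a slow rate, under the growth factor receptor CSF1R.

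Each mouse held 871 to 3616 human cells (median 1684) and 3502274 to 12763974 human UMIs (unique molecules counted per gene), with a median depth per cell of 2783.5 to 6003.5 UMIs. The list was thinly covered at the level of single genes: MKI67 gave 18 to 292 UMIs per mouse and CDC20 3 to 102, while KIF20B gave 270 to 1396. The cells carried the microglia markers throughout, with summed levels of 17557 to 25252 CPM (counts scaled to 1e6 per mouse, after TMM scaling) in every mouse. The sums per mouse cannot tell fewer dividing cells from less RNA of these genes per cell. Among the human cells kept, any 2 libraries shared at most 49 cell barcodes, and the shares were 0.193 to 0.423% of the smaller library. Over all barcodes, libraries 1 and 2 shared the most, 181 (1.07% of the smaller library). The sample labels of library 4 contradict each other on which mice it holds, so mice were taken from the hashtag names in the feature tables. Mouse AB12 is labelled as having the enhancer intact, but only 3.04% of its tagged cells were over 5% mouse RNA, against 5.08 to 9.40% in the 6 other such mice of its pool and 2.58 to 5.85% in its 3 FIRE mice. It was kept in the group its label names, and the genotype results are also given without it. The study compared treatment groups of equal size. By the labels used here, FIRE mice number 6 under Lecanemab and 5 under IgG1, so AB12 may belong with the FIRE mice given IgG1. No fit placed AB12 among the FIRE mice, so this was not tested. The treatment, interaction and genotype values all rest on its label.

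Free RNA in the droplets was measured in 3236 barcodes that held at least 95% mouse UMIs. MKI67, the antigen of proliferating cells, was at 15.9 CPM of human UMIs there and 15.6 CPM in human cells, without TMM scaling, from 5 UMIs in those barcodes. The share of barcodes with an MKI67 UMI was 0 to 0.369% in mouse barcodes by library and 0.809 to 1.55% in human cells, but the mouse barcodes held a median of only 34 to 154 human UMIs against 2618 to 4071. Cells were therefore counted by how many members they carried together.

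Most human cells carried few mitotic genes and a small number carried many. Mitotic genes here means the 20 G2/M members other than CKS1B, CKS2 and HMGB2. No mitotic gene was detected in 33309 cells, 1 in 13707, 2 in 2023, 3 to 5 in 519, and 6 or more in 431. At the far end, 28 cells carried all 20. KIF20B alone, a kinesin of cytokinesis, made up 9493 of the 13707 cells with 1 gene. After each cell was thinned to 1000 UMIs, 647 cells (1.29%) carried 2 or more, of which 305 carried exactly 2 and 182 of these had KIF20B as a member of the pair. Cells with 2 or more after thinning are called mitotic-gene cells below; each mouse held 8 to 54 of them (median 26.5). At full depth they held more RNA than the other cells of their mouse in 26 of 26 mice, with a ratio of median UMIs of 1.02 to 2.15 (median 1.51).

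**Figure D1:**
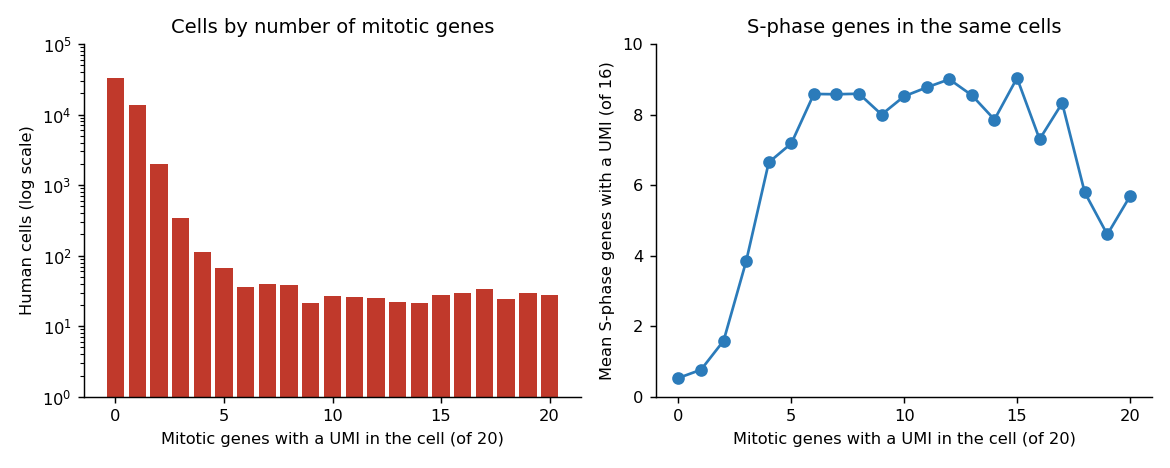
Number of human cells (log axis) by how many of the 20 mitotic genes each carried, and the mean number of the 16 S-phase genes in those cells. The count falls from 33309 cells with no mitotic gene to a long tail that ends with 28 cells carrying all 20, and the mean number of S-phase genes rises from 0.533 at 0 mitotic genes to 9.04 at 15 and is 5.68 at 20.

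S-phase and G2/M genes lay in overlapping sets of cells. Cells with no mitotic gene carried a mean of 0.533 S-phase genes, cells with 3 carried 3.84 and cells with 4 carried 6.64. The mean was between 7.86 and 9.04 from 6 to 15 mitotic genes, then 5.79 at 18, 4.60 at 19 and 5.68 at 20. With 6 genes of a phase as the limit, 578 cells (1.16%) were high for S-phase genes only, 276 (0.552%) for both phases and 155 (0.310%) for mitotic genes only. Their median depths were 6374.5, 8049 and 5710 UMIs, against 3393 in the remaining cells. These counts were not thinned, so deeper cells had more chance to pass the limit. In pools A, B and C, the S-only share was 0.623, 1.59 and 1.96% and the mitotic-only share 0.235, 0.400 and 0.404%.

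The members differed in how far their RNA was held by these cells. Cells with at least 3 mitotic genes other than the gene itself made up at most 1.90% of all cells. In all, 11 members had over 80% of their UMIs in them, of which 9 were G2/M genes and 2 S-phase genes. MKI67 had 95.6% there and was seen in 46.1% of those cells but in 0.144% of cells with no other mitotic gene. ASPM, a spindle pole protein, had 94.2%, UBE2C, which charges the anaphase-promoting complex with ubiquitin, 91.9%, and TOP2A, which untangles sister chromosomes, 90.9%. AURKB and BIRC5, partners in the complex that corrects spindle attachments, had 90.7% and 89.0%. CDK1, the kinase that starts mitosis, had 87.8%, CDC20, the activator of the anaphase-promoting complex, 87.1%, and TPX2, a spindle assembly factor, 81.9%. The S-phase genes of this kind were RRM2, the regulated subunit of ribonucleotide reductase, with 95.1%, and TYMS, which makes thymidylate, with 80.3%.

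At the other end, 12 members had under 30% of their UMIs in those cells: 8 S-phase genes, 3 G2/M genes and UBE2T (26.0%). MCM2 to MCM7 encode the 6 subunits of the replicative helicase, and all of them were in this group, at 27.1% (MCM2), 15.9% (MCM3), 28.2% (MCM4), 11.4% (MCM5), 18.3% (MCM6) and 15.3% (MCM7). PCNA, the sliding clamp of the DNA polymerases, had 20.5% and RRM1, the constant subunit of ribonucleotide reductase, 19.99%. CKS1B and CKS2, small subunits of cyclin-dependent kinases, had 27.6% and 23.6%. KIF20B had the lowest value, 5.46%. PCNA was still enriched, being seen in 57.6% of cells with 3 or more mitotic genes and in 10.4% of cells with none. MCM5 was seen in 50.2% and 12.1%, HMGB2, a chromatin protein of dividing cells, in 65.9% and 12.6%, and KIF20B in 55.8% and 22.2%. The cells compared in this way differed in depth (median 6480.5 UMIs against 3130 for the S-phase genes), and the part of depth in each gap was not tested.

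The other 17 members lay between. Among S-phase genes these were TK1, thymidine kinase (74.5%), PCLAF, a partner of PCNA (68.3%), CDC6 and CDT1, which load the helicase (48.7% and 44.9%), GINS2, a part of the active helicase (35.1%), and HELLS, a chromatin remodeller (34.0%). The mitotic kinases PLK1, BUB1 and AURKA had 69.8%, 57.6% and 42.4%, and the cyclins CCNB2, CCNB1 and CCNA2 had 69.3%, 55.3% and 54.0%. CDCA8, another partner of AURKB and BIRC5, had 67.5%, CENPF, a kinetochore protein, 67.1%, KIF11, the motor that pushes spindle poles apart, 65.2%, NUSAP1, a spindle protein, 53.5%, and HMGB2 33.1%. The median was 31.1% for the 16 S-phase genes and 67.5% for the 23 G2/M genes. In the share of all cells with a UMI, KIF20B (23.4%), HMGB2 (14.7%), MCM5 (14.6%) and PCNA (12.6%) stood high and MKI67 low (1.07%), and 23 members were seen in under 2% of cells.

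**Figure D2:**
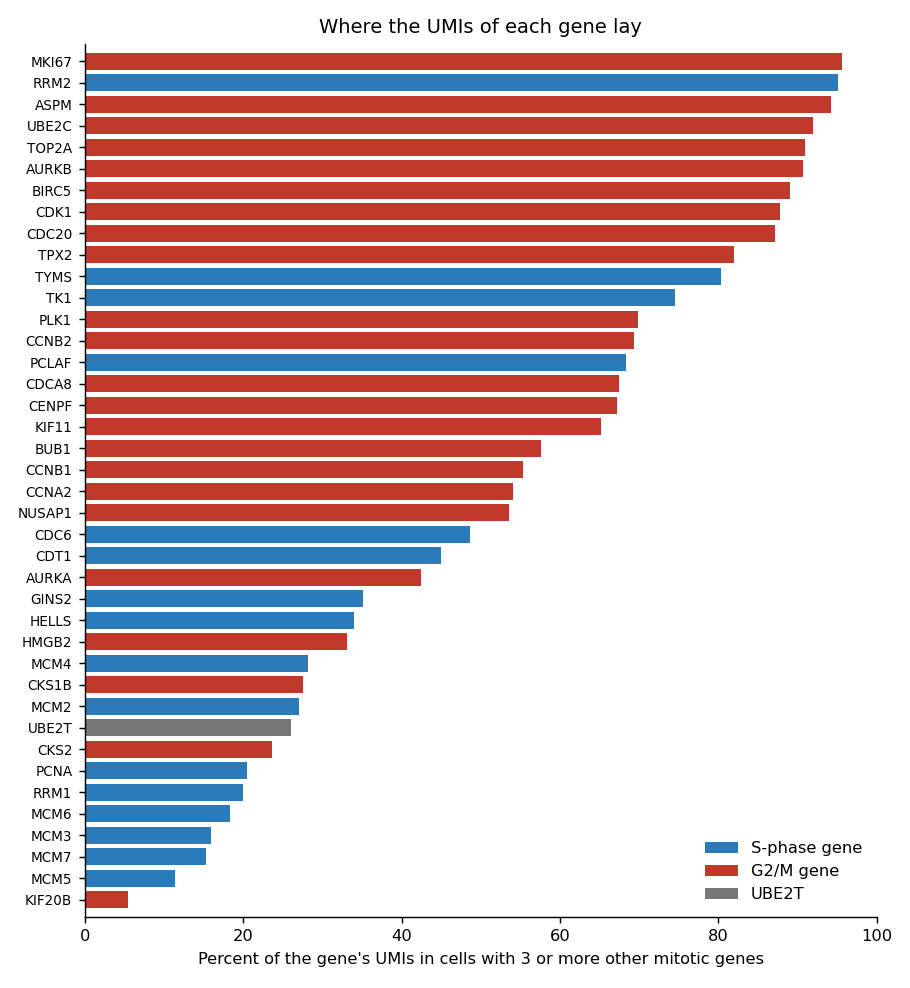
For each of the 40 genes, the percent of its UMIs that lay in cells with at least 3 other mitotic genes, coloured by phase. MKI67 at 95.6% and RRM2 at 95.1% are at the top, the helicase subunits lie between 11.4 and 28.2%, and KIF20B is lowest at 5.46%.

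The promoters of the list carried the motifs of its phases. RefSeq promoter windows (GRCh38.p14, 250 bases before to 50 after the start of the gene) matched 33 of the 40 members, and both strands were searched. The CHR (TTTGAA) was in 14 of 18 G2/M members (77.8%), in 1 of 14 S-phase members (7.14%, RRM1) and in 18.2% of 27305 genes with a window. An E2F site (TTCCCGC or TTTGGCG) was in 12 of 14 S-phase members (85.7%), 2 of 18 G2/M members (11.1%) and 9.86% of all genes. The CCAAT box was in 18 of 18 G2/M members, 11 of 14 S-phase members (78.6%) and 39.7% of all genes. Over single windows rather than genes, the shares of all 35116 windows were 15.2%, 8.27% and 34.6%. The promoters of 4 genes are shown because their genes stood at different places in the ranking above: MKI67 as the G2/M gene at the top, the cyclin CCNB2 near the middle of the G2/M genes, KIF20B at the bottom, and MCM3 as a helicase subunit. Capitals mark the motifs found on either strand (CHR, CCAAT and E2F letters as above, or their reverse complements), and each sequence is on the strand of its gene.
MKI67, chr10:128126374-128126673, minus strand: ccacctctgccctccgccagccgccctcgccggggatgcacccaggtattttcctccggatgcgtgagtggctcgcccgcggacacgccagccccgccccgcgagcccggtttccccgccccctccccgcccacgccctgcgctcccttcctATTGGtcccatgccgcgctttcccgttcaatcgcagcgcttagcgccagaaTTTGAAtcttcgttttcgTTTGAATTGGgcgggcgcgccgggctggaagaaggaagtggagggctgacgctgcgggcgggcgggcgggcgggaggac
CCNB2, chr15:59104896-59105195, plus strand: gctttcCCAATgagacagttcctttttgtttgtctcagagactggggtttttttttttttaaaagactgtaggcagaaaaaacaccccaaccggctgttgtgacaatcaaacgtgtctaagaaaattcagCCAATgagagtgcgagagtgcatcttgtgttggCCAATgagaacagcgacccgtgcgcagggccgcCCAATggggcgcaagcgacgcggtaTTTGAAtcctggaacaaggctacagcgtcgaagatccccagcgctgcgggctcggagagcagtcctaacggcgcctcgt
KIF20B, chr10:89701340-89701639, plus strand: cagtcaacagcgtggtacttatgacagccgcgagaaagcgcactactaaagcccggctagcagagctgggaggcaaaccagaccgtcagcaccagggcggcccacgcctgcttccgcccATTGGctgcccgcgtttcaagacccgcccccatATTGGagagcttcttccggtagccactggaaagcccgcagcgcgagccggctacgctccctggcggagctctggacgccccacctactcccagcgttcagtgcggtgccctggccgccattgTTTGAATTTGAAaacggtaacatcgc
MCM3, chr6:52284693-52284992, minus strand: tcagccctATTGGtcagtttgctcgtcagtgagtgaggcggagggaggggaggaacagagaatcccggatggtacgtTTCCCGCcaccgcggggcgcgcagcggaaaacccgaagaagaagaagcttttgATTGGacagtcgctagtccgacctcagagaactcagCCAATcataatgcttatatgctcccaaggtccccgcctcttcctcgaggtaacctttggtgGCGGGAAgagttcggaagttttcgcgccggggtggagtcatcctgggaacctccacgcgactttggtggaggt
In MKI67 the CHR letters begin 47 and 29 bases before the start, and the reverse CCAAT box (ATTGG) 98 and 24 bases before it, so that the second pair shares 1 base. CCNB2 has 4 CCAAT boxes, at 244, 120, 87 and 54 bases before the start, and a CHR at 29. KIF20B also has both motifs, ATTGG at 131 and 98 bases before the start and the CHR letters at 25 and 31 bases after it. MCM3 has no CHR letters in this window and has E2F letters at 173 and 23 bases before the start. A match of letters is a description and not a measured binding site.

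The mitotic-gene cells were compared with all other cells of the same mouse in the 17 mice that held at least 20 of them. The cells were chosen by the 20 mitotic genes, so those genes are given as a description only, while genes off that list were not used in the choice. A gene that is high in mitotic-gene cells can pass a filter on low counts through those cells alone, so the values below are for the 12215 genes that passed it in the other cells. Thinning served only to choose the cells, and the sums per mouse were taken at full depth. In edgeR's quasi-likelihood test on these sums, 11.7% of these genes were higher and 20.8% lower in mitotic-gene cells at an adjusted p under 0.05. Of 44 further S-phase genes, from a list without the members, 35 passed the filter and 34 of these were higher (median log2 fold change 1.99, against -0.15 over all genes tested). CENPU, a centromere protein, rose from 6.19 ± 2.90 to 112 ± 34.7 CPM (SD, n = 17 mice; log2 fold change 4.21, edgeR adjusted p = 6.1e-47) and CLSPN, a replication checkpoint protein, from 8.44 ± 4.33 to 152 ± 54.7 CPM (log2 fold change 4.23, edgeR adjusted p = 7.7e-47), each higher in 17 of 17 mice. The exception was RFC2, a clamp loader subunit, with a log2 fold change of 0.25 (edgeR adjusted p = 0.21). Of 55 further G2/M genes, 29 passed the filter and all 29 were higher (median log2 fold change 3.53), among them PRC1, a midzone protein, at 2.74 ± 1.36 CPM in the other cells and 259 ± 77.7 CPM in mitotic-gene cells, and PTTG1, which encodes securin, at 11.1 ± 3.88 and 322 ± 253 CPM. The S-phase members that passed, also not used in the choice, rose by log2 0.91 for MCM5, 2.27 for MCM2, 2.43 for PCNA, 3.28 for HELLS and 5.74 for TYMS, while RRM2, TK1 and CDC6 did not pass. CKS1B, CKS2, HMGB2 and UBE2T rose by log2 3.34, 3.31, 4.02 and 3.23.

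The regulators of entry into the cycle moved less uniformly in these cells. Of 24 G1 genes, 16 passed the same filter, of which 8 were higher and 2 lower. Cyclin E2 (CCNE2), which starts S phase, rose from 2.59 ± 1.03 to 59.5 ± 32.9 CPM, while the D-type cyclins CCND1 and CCND2 were lower by log2 values of -0.99 and -1.05. Of 18 inhibitors and brakes, 17 passed, of which 7 were higher and 4 lower: CDKN2C and CDKN2A, inhibitors of the cyclin D kinases, rose by log2 3.65 and 2.03, and BTG1 and BTG2, genes of quiescent cells, had log2 values of -0.49 and -0.45. Of 9 genes of the growth factor axis that passed, 8 were lower and none higher, with 6 to 9 lower under the alternatives. CSF1R was at 823 ± 120 CPM in mitotic-gene cells and 1135 ± 104 CPM in the others, lower in 17 of 17 mice (log2 fold change -0.46). The 12 microglia markers were all lower (9 of 12 with library totals in place of TMM scaling), with log2 values of -0.85 for TREM2, -0.78 for GPR34 and -0.70 for P2RY12. Among markers of other cells, 1 of 7 border macrophage markers was lower (MRC1, -0.53), 1 of 3 monocyte markers was higher (S100A8, 0.50), and no lymphoid, blood progenitor or pluripotency marker had enough counts to test. Of 3 dendritic cell markers tested, 1 was lower, as was the 1 neural marker tested (log2 fold change -0.50).

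**Figure D3:**
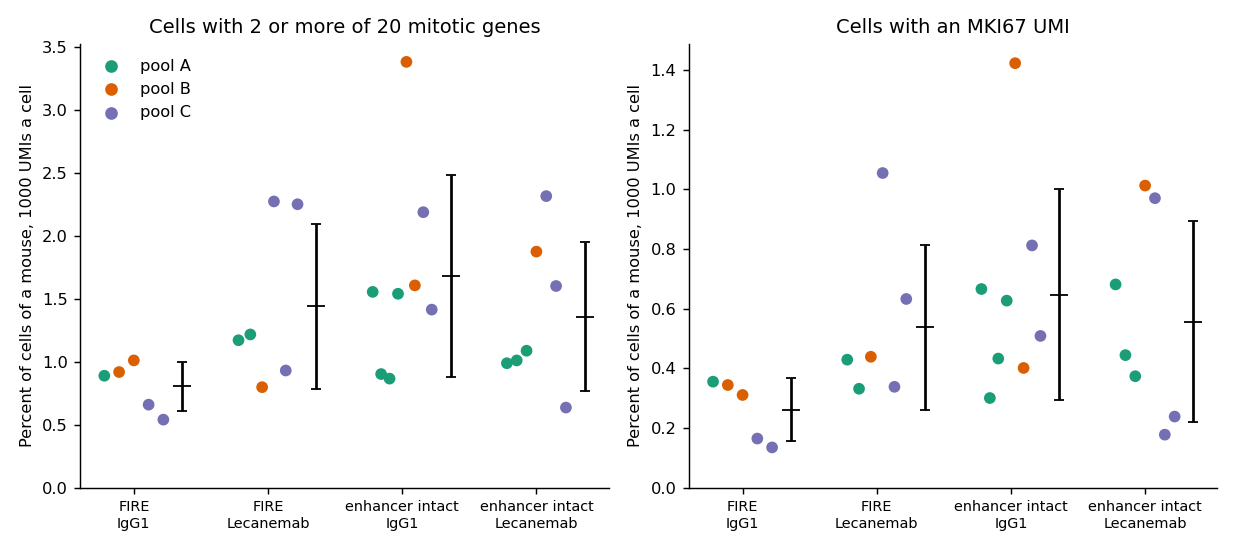
Percent of mitotic-gene cells (left) and of cells with an MKI67 UMI (right) in each mouse after thinning to 1000 UMIs per cell, grouped by host genotype and treatment and coloured by pool. Points are mice, the black dash is the group mean and its error bar the SD; MKI67 runs from 0.135 to 0.356% in FIRE mice given IgG1 and from 0.332 to 1.06% in FIRE mice given Lecanemab, and AB38, given IgG1 with the enhancer intact, is highest at 1.42%.

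The first comparison asked whether Lecanemab changed these genes in FIRE mice, the hosts in which the study compared the treatments. No member passed an adjusted p of 0.05 in edgeR's quasi-likelihood test, as was the case for all 13699 genes tested. MKI67 was at 3.54, 4.27, 6.25, 7.48 and 8.48 CPM in the 5 mice given IgG1, and its lowest, median and highest values in the 6 given Lecanemab were 3.78, 14.9 and 34.7 CPM. Of the Lecanemab mice, 4 were above every IgG1 mouse, and AB92 (3.78 CPM) and AB57 (7.89 CPM) lay within the IgG1 range. TOP2A was at 6.07, 7.48, 7.78, 8.38 and 15.4 CPM under IgG1, and at 5.77, 17.3 and 50.0 CPM (lowest, median, highest) under Lecanemab. CDK1 was at 2.42, 3.59, 3.77, 4.03 and 6.11 CPM under IgG1 and at 3.17, 7.66 and 16.6 CPM under Lecanemab. The S-phase gene TYMS was at 3.16, 6.01, 7.19, 10.4 and 14.2 CPM under IgG1 and at 5.41, 10.1 and 29.2 CPM under Lecanemab. PCNA was at 30.5, 39.8, 46.5, 50.9 and 66.9 CPM and at 30.8, 41.2 and 67.2 CPM, and MCM3 at 21.6, 22.2, 25.2, 27.0 and 28.0 CPM and at 16.8, 24.0 and 45.0 CPM. The groups overlapped for all 6 genes. AB12, given IgG1 and labelled intact, was at 17.4 CPM of MKI67, above the 5 FIRE mice given IgG1, so the FIRE values rest on its label as well.

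The fitted log2 fold changes in FIRE mice were above 0 for 38 of 40 members, with a median of 0.91 over the G2/M genes and 0.25 over the S-phase genes. They were 1.48 for MKI67 (SE 0.50), 1.22 for TPX2 (SE 0.44) and 0.47 for CKS1B (SE 0.17), each with an adjusted p of 0.61 in edgeR's test; KIF20B and MCM6 were at -0.01 and -0.02. PCNA and MCM3 were at 0.04 (SE 0.14) and 0.06 (SE 0.19). At an unadjusted p under 0.05, 13 members were higher, all of them G2/M genes, against 4.12% of all genes higher at that level. DESeq2 gave 18 such members and limma-voom 2, and neither called a member in any treatment or genotype comparison. That count was 6 without AB88, the Lecanemab mouse with the highest MKI67, and 25 without AB57. With no filter on low counts 9 members were called (MKI67, TOP2A, CDK1, CENPF, UBE2C, ASPM, CCNB2, TPX2 and CKS1B), against 0.252% of the 26233 genes then tested. When mitotic-gene cells were left out, no member reached an unadjusted p under 0.05 among the 37 that could be tested. The cells left out were chosen by the mitotic genes themselves, so for those genes this result is a description only. It cannot show which cells held the difference. The monocyte markers S100A8 and S100A9 had log2 fold changes of 3.23 and 3.04 in the same comparison (edgeR, adjusted p = 0.61 each). The summed level of the 9 monocyte and granulocyte markers, of which MPO and ELANE had no UMI, was 203 to 433 CPM under IgG1 and 166 to 912 CPM under Lecanemab. Their part in the values of the cell cycle genes was not tested.

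The share of cells gave values of the same direction, and the mice of the 2 groups overlapped. After thinning, MKI67 was seen in 0.538 ± 0.276% of cells (SD, n = 6) under Lecanemab and 0.262 ± 0.104% (n = 5) under IgG1. The difference within pools averaged 0.285 percentage points (exact permutation of mice within pools, two-sided p = 0.1, adjusted p = 0.183 over 3 tests; the smallest p this design allows is 0.0111), and with each mouse left out in turn it was 0.183 (without AB88) to 0.378 (without AB16). It was 0.0249 points in pool A, 0.111 in pool B and 0.526 in pool C. Mitotic-gene cells made up 1.44 ± 0.655% under Lecanemab and 0.804 ± 0.196% under IgG1, a difference of 0.613 points that was 0.305 in pool A, -0.166 in pool B and 1.22 in pool C. The 2 libraries of pool C differed for the same mouse by a median of 0.471 points and by 2.26 points for AB88, which had 3.32% in library 4 and 1.05% in library 5. Library 5 was higher than library 4 in 2 of the 10 mice of pool C. In pool A, library 2 was higher than library 1 in 5 of 10 mice, with a median absolute difference of 0.204 points.

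In mice with the enhancer intact, no member passed the test between Lecanemab and IgG1, and no member reached an unadjusted p under 0.05, against 4.76% of all genes in either direction. MKI67 was at 9.29, 15.96 and 47.8 CPM (lowest, median, highest of 8 mice) under IgG1 and at 3.56, 14.6 and 25.1 CPM (7 mice) under Lecanemab. TOP2A was at 8.81, 20.3 and 72.6 CPM and at 4.75, 21.1 and 35.5 CPM. The log2 fold changes were below 0 for 22 of 23 G2/M genes (median -0.26) and for 8 of 16 S-phase genes (median 0.01). The values nearest to a call were 0.26 for MCM6, 0.39 for MCM2 and 0.29 for HELLS among the higher, and -0.68 for UBE2C, -0.36 for CDCA8 and -0.40 for CCNB1 among the lower. The MKI67 share was 0.557 ± 0.338% (n = 7) against 0.647 ± 0.354% (n = 8), a difference of -0.0510 points (exact permutation test, p = 0.776), which was -0.0359 without AB12 (exact permutation test, p = 0.857) and 0.0164 without AB38. The share of mitotic-gene cells was 1.36 ± 0.591% against 1.68 ± 0.804%.

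The difference between the 2 treatment effects was tested as an interaction. No member was called, and 15 were higher in the FIRE direction at an unadjusted p under 0.05, all G2/M genes, against 2.43% of all genes. The interaction was above 0 for 23 of 23 G2/M genes and for 11 of 16 S-phase genes. UBE2C had a log2 interaction of 2.04 (SE 0.63), MKI67 of 1.79 (SE 0.61) and KIF11 of 1.26 (SE 0.45), each with an edgeR adjusted p of 0.94, while CDT1, MCM6 and MCM3 were at -0.29, -0.28 and -0.06. The count at an unadjusted p under 0.05 was 7 without AB38, 14 without AB12 and 22 without AB57. With no filter on low counts 3 members were called (MKI67, TOP2A and UBE2C), against 0.0152% of genes.

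**Figure D4:**
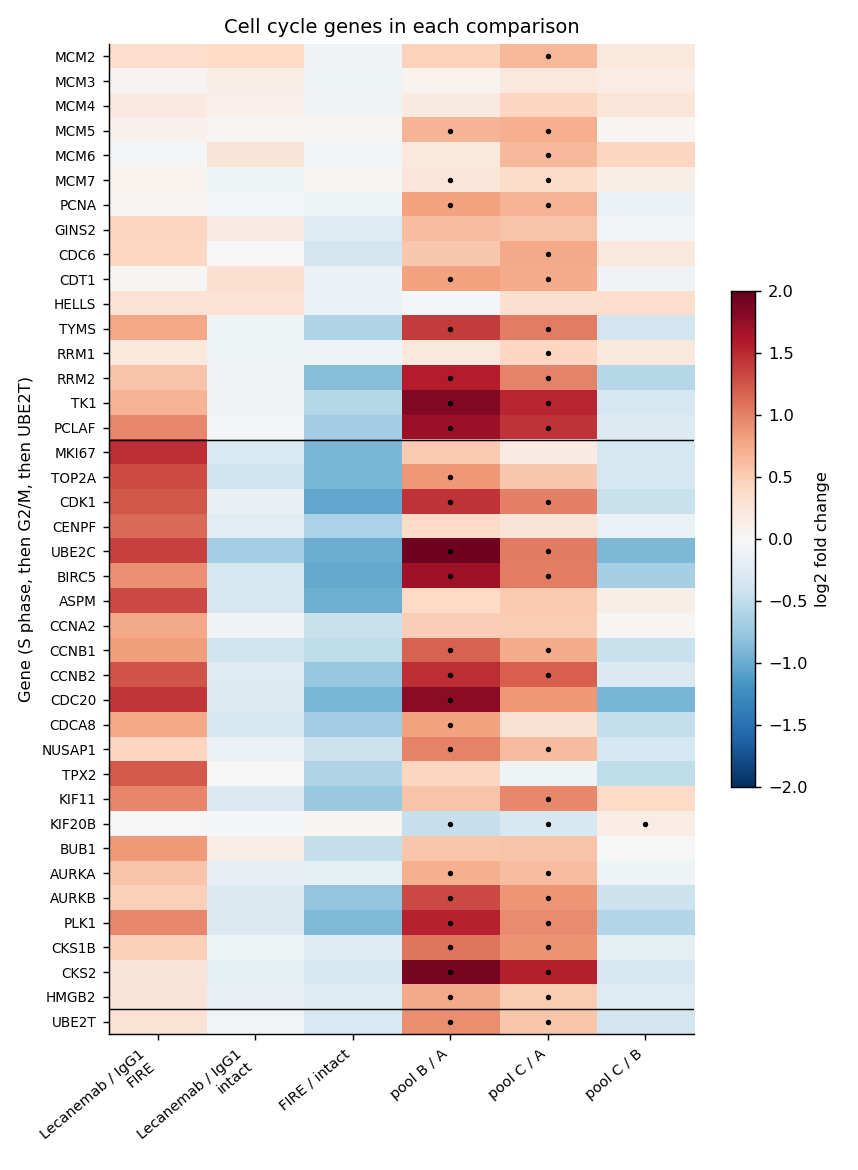
Fitted log2 fold change of each of the 40 genes (rows, by phase) in 6 comparisons (columns), in red above 0 and blue below it, with a black dot where edgeR's adjusted p was under 0.05. Of the 23 G2/M genes, 22 are red for Lecanemab against IgG1 in FIRE mice (median 0.91) and 22 blue for FIRE against intact hosts (median -0.70), KIF20B being the exception in both (-0.01 and 0.05), with no dot in either column, and most dots lie in the columns of pools B and C against pool A.

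The next comparison set FIRE mice against mice with the enhancer intact, within pools and treatments. No member was called, while 0.409% of all genes were, and 23 members were lower in FIRE mice at an unadjusted p under 0.05, against 8.61% of all genes lower at that level. These were 19 G2/M genes, the S-phase genes TYMS, RRM2 and PCLAF, and UBE2T. CDK1 was at 2.42, 4.58 and 16.6 CPM (lowest, median, highest) in the 11 FIRE mice and at 3.56, 9.12 and 37.0 CPM in the 15 others. BIRC5 was at 0.745, 3.64 and 7.58 CPM and at 2.20, 4.94 and 22.9 CPM, and KIF11 at 1.80, 3.13 and 10.8 CPM and at 2.33, 4.86 and 12.1 CPM. The genotypes overlapped widely for each of them.

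The log2 fold changes were -1.04 for CDK1 (SE 0.29, edgeR adjusted p = 0.091), -1.02 for BIRC5 (SE 0.29, adjusted p = 0.099) and -0.74 for KIF11 (SE 0.23, adjusted p = 0.12). The values above 0 were 0.05 for KIF20B, 0.03 for MCM7 and 0.02 for MCM5. The median was -0.70 over the G2/M genes and -0.11 over the S-phase genes. Without AB12, the mouse of doubtful genotype, 24 members were lower at an unadjusted p under 0.05 and none was called; CDK1, BIRC5 and KIF11 were then at -1.04, -1.01 and -0.74 (edgeR adjusted p = 0.077, 0.093 and 0.11). Without AB38 the count was 14. With no filter on low counts 20 members were called lower, against 1.22% of genes. The MKI67 share was 0.413% (mean of 11 mice) in FIRE mice and 0.605% (15 mice) in the others, a difference within pools and treatments of -0.221 points (exact permutation test, p = 0.122, adjusted p = 0.183), lower in 5 of 6 combinations of pool and treatment. It was -0.217 points without AB12 (p = 0.135, exact permutation test). With each mouse left out in turn its extremes were -0.284 without AB88 (p = 0.0363, exact permutation test) and -0.140 without AB38 (p = 0.242, exact permutation test). Group means of the MKI67 share were 0.262% in FIRE mice and 0.647% in the others under IgG1, and 0.538% and 0.557% under Lecanemab. The same FIRE mice given IgG1 enter the FIRE treatment, interaction and genotype comparisons, so these are not independent. The share of mitotic-gene cells was 1.15% and 1.53%, lower in 4 of 6 combinations; the difference within pools and treatments was -0.480 points, and -0.468 without AB12. Among genes near the list, CDK6, a kinase of cyclin D, was called lower in FIRE mice (log2 fold change -0.56, edgeR adjusted p = 0.0093). FCER1A, a dendritic cell marker, and CD34, a progenitor marker, were called higher (1.46 and 1.18, edgeR adjusted p = 0.014 and 0.0072). Without AB12 these 3 were at -0.58, 1.47 and 1.20 (edgeR adjusted p = 0.0049, 0.0088 and 0.0071). FCER1A and CD34 are markers of other cells. Of 7 border macrophage markers, none was called between genotypes, 2 lay above 0, and the median log2 fold change was -0.48. The part of all these markers in the cell cycle values was not tested.

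More of these genes passed the test between pools than between treatments or genotypes. The methods state that the treatment was repeated over separate graft differentiations and antibody batches, without naming the pool of each. Cells with fewer than 6 genes of each phase had median mitochondrial shares of 6.26, 3.61 and 7.79% in pools A, B and C. Their median depths were 3047, 4019 and 3662 UMIs. Such differences cannot be told apart from the pool. Between pool B and pool A, where 62.5% of all genes differed, 24 members were called higher, against 31.3% of all genes, and 1 lower (KIF20B), against 31.3% of all genes lower. Between pool C and pool A, where 52.2% of all genes differed, 26 were higher, against 26.8% of genes, and 1 lower (KIF20B again), against 25.5%. Both comparisons share the mice of pool A. With library totals in place of TMM scaling, which moves the median of all genes to -0.227 and -0.149, 19 members were higher and 1 lower in each comparison, against 18.5% and 14.8% of genes higher.

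CKS2 was at 12.03, 16.3 and 22.3 CPM (lowest, median, highest) in pool A, 37.0, 51.7 and 101 CPM in pool B and 28.5, 47.3 and 58.3 CPM in pool C, (log2 fold change 1.90 and 1.56, SE 0.17 and 0.16). CKS1B was at 20.8, 24.2 and 28.3 CPM, at 31.3, 45.8 and 81.6 CPM and at 29.6, 45.8 and 63.0 CPM (1.07 and 0.89). PCNA was at 28.8, 32.5 and 37.2 CPM, at 43.3, 52.3 and 70.3 CPM and at 39.2, 49.7 and 67.3 CPM (0.80 and 0.68). MCM5 was at 31.5, 34.9 and 41.2 CPM, at 53.8, 55.7 and 65.9 CPM and at 41.6, 50.8 and 90.7 CPM (0.68 and 0.72). The pool A values of CKS2, CKS1B, PCNA and MCM5 lay below every mouse of pools B and C, as did those of 4.7% of the 13699 genes tested. HMGB2 was at 39.7, 49.1 and 59.5 CPM, at 61.4, 75.9 and 128 CPM and at 46.2, 66.8 and 93.1 CPM (0.76 and 0.51). KIF20B went the other way, from 87.2, 100.2 and 105 CPM in pool A to 68.1, 71.8 and 77.6 CPM in pool B and 74.8, 78.7 and 87.8 CPM in pool C (-0.47 and -0.32).

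Genes held by mitotic-gene cells varied more from mouse to mouse within a pool. UBE2C was at 2.24, 4.61 and 8.52 CPM in pool A, 4.31, 10.4 and 51.9 CPM in pool B and 2.25, 7.78 and 22.2 CPM in pool C (log2 fold change 1.94 and 1.04, both called), and TK1 had log2 fold changes of 1.86 and 1.53. TYMS was at 4.70, 7.29 and 11.5 CPM, at 7.38, 15.4 and 38.7 CPM and at 3.16, 13.1 and 33.3 CPM (1.40 and 1.02, both called). MKI67 was not called, at 6.25, 14.1 and 21.7 CPM, at 7.48, 8.89 and 47.8 CPM and at 3.54, 14.5 and 34.7 CPM (0.53 and 0.17). HELLS (-0.03) in pool B and TPX2 (-0.08) in pool C were the members below 0 other than KIF20B with the smallest p. Without the mitotic-gene cells, 37 members could be tested, and 15 were higher and 2 lower (KIF20B and CENPF) in pool B, against 30.9% of genes higher, and 20 higher and 1 lower in pool C, against 26.7%. The cells left out were chosen by the 20 mitotic genes, so for those genes these counts are a description only. PCNA kept log2 fold changes of 0.69 and 0.62, CKS2 of 1.71 and 1.51, CKS1B of 0.84 and 0.76, and MCM5 of 0.67 and 0.72.

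The related lists were read against the same shares of all genes, 31.3% higher and 31.3% lower in pool B and 26.8% and 25.5% in pool C. Of 43 further S-phase genes tested, 16 were higher and 6 lower in pool B and 20 higher and 4 lower in pool C, and of 53 further G2/M genes, 34 and 30 were higher and 2 lower in each. CDKN1A, an inhibitor of cyclin-dependent kinases, was higher by log2 1.42 and 1.21, and MYC, a growth regulator, by 1.87 and 1.31, while the D-type cyclin CCND2 was lower (-0.76 and -0.65). The 3 monocyte and granulocyte markers that could be tested rose in both pools: S100A8 by log2 2.89 and 2.64, S100A9 by 3.31 and 2.93, and CD14 by 1.25 and 0.79. The summed level of that list was 133 to 288 CPM in pool A, 267 to 711 CPM in pool B and 204 to 912 CPM in pool C, with MPO and ELANE at 0, and its part in the cell cycle values was not tested. Between pools C and B, KIF20B was the only member called (log2 fold change 0.14, edgeR adjusted p = 0.030, against 15.7% of genes higher). Of the members not called, MCM6 (0.43) and RRM1 (0.21) above 0 and UBE2C (-0.90), CDC20 (-0.93) and CKS2 (-0.34) below it had the smallest p.

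The balance of S-phase to mitotic genes also differed between mice. The summed CPM of the 16 S-phase genes divided by that of the 20 mitotic genes ran from 0.476 in AB88 to 1.92 in AB92, both FIRE mice of pool C given Lecanemab. By group it was 1.42 ± 0.212 (SD) in FIRE mice given IgG1, 1.18 ± 0.566 in FIRE mice given Lecanemab, 0.931 ± 0.258 in intact mice given IgG1 and 1.06 ± 0.329 in those given Lecanemab. By pool it was 0.904 ± 0.171, 1.20 ± 0.373 and 1.28 ± 0.464 in A, B and C. The S-phase sum was 211 ± 16.2, 314 ± 65.3 and 318 ± 123 CPM in the pools, and the mitotic sum 240 ± 37.7, 306 ± 189 and 272 ± 108 CPM, of which KIF20B alone gave 68.1 to 105 CPM. AB38 had the highest mitotic sum (664 CPM) and also the deepest cells (median 6003.5 UMIs), and AB41 the highest S-phase sum (554 CPM). These ratios are sums of members and are given with no test.

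**Figure D5:**
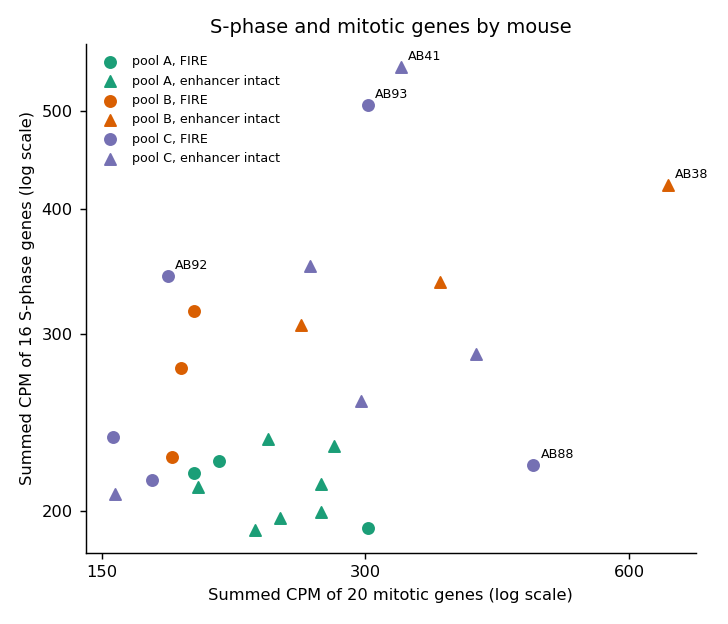
Summed CPM of the 16 S-phase genes against summed CPM of the 20 mitotic genes, both on log axes, 1 point per mouse, with colour for pool and marker shape for host genotype. Pool A mice lie close together (211 ± 16.2 and 240 ± 37.7 CPM, SD), while AB38 is far out on the mitotic axis at 664 CPM and AB41 on the S-phase axis at 554 CPM.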

How the data were processed

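The authors deposited UMI counts per gene and barcode for 5 libraries (10x 3' v3.1 with TotalSeq-A hashtags), made with Cell Ranger on GRCh38 and mm10 (6.0.1 or 6.1.2 per the file headers; Cell Ranger 6.1.2 and Seurat 4.2.3 per the submitters' processing notes). Reads that fit more than 1 gene are not counted, so genes with near-identical copies may be undercounted.

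Hashtags were called with HTODemux in Seurat 5.3.0 (quantile 0.99). Singlets with at least 1000 human UMIs and at most 5% mouse UMIs were kept. Mouse AB09, with 1 cell, fell under the minimum of 50 and was left out. Doublets within a mouse were kept, since Scrublet's own limit marked 0 or 1 cell per library; leaving out the 5% of cells with the highest score was an alternative chosen after seeing the data, as were the list without KIF20B and, for mitotic-gene cells against the others, the filter on the other cells alone, which replaced the joint filter in the text.

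Counts were summed per mouse and fitted with edgeR 4.0.16 (R 4.3.3; filterByExpr, TMM, quasi-likelihood test, Benjamini-Hochberg over 13699 genes), with terms for pool and for each genotype and treatment; DESeq2 1.42.0 and limma 3.58.1 (voom) were alternatives. Shares of cells were compared by exact permutation of mice within pools. The fits were tested on simulated data. The genes and lists were chosen with earlier results of these data known. Values by mouse are given for MKI67, TOP2A, CDK1, PCNA, TYMS and MCM3; otherwise each comparison names genes past the threshold or, where few pass, at most 3 in each direction by lowest p (10 in all), and at most 4 in each direction from other lists.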

Additional observations from a re-analysis of the deposited data

Results flagged for a closer look

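In 9 of 40 groups of mice tested, a single mouse lay apart from its group by more than Dixon's 95% limit on the gap to its nearest neighbour allows. About 1 in 20 groups would be expected to do so by chance, and the measures are not independent, since several come from the same mice. AB38, a pool B mouse with the enhancer intact given IgG1, accounted for 4 of them. Its share of cells with MKI67 was 1.42%, against 0.301 to 0.813% in the 7 other mice of its group. Its summed mitotic level was 664 CPM against 193 to 401 CPM. Its CDK1 level was 37.0 CPM against 3.89 to 18.2 CPM, and its TYMS level 38.7 CPM against 4.78 to 16.6 CPM. Its cells were also the deepest, with a median of 6003.5 UMIs, and its TMM factor, which divides its CPM, was the lowest (0.782; median over mice 0.995). The MKI67 share was measured at 1000 UMIs per cell.

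The S-phase genes singled out a mouse in each of the groups given Lecanemab, both in pool C. AB41, with the enhancer intact, had a summed S-phase level of 554 CPM against 197 to 338 CPM, and an MCM3 level of 46.0 CPM against 19.6 to 27.4 CPM. AB93, a FIRE mouse, had 45.0 CPM of MCM3 against 16.8 to 27.1 CPM and 29.2 CPM of TYMS against 5.41 to 13.9 CPM. AB86, a FIRE mouse of pool B given IgG1, had 15.4 CPM of TOP2A against 6.07 to 8.38 CPM.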

How the results depend on the processing

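The count of these genes called depended most on the filter for low counts. With no filter, 9 were called for Lecanemab in FIRE mice, 3 for the interaction, 20 for FIRE against intact hosts and 8 for pool C against pool B. For FIRE against intact hosts the count was 1 with the study's cell filter (CDK1) and 1 without library 4 (ASPM), 2 at a hashtag quantile of 0.95 (CDK1 and BIRC5), and 0 to 1 when each mouse was left out in turn (1 without AB49). For pool C against pool B it was 2 with library totals, 3 without mitotic-gene cells, 0 without library 4, and 0 to 7 with mice left out (7 without AB57, 0 without AB40, AB41, AB45, AB79, AB86 or AB92). The counts for pools B and C against A were 20 to 31 and 22 to 32 with mice left out. The genotype difference of the MKI67 share was -0.284 to -0.140 points, and the treatment difference in FIRE mice was 0.134 with the study's cell filter. The joint filter on low counts gave 94 of 95 further S-phase and G2/M genes higher in mitotic-gene cells, and the filter on the other cells 63 of 64. Over all genes, FIRE against intact hosts gave 25 higher and 31 lower genes, 83 and 125 with DESeq2, 73 and 49 with limma-voom, 64 and 34 with library totals, and 190 and 320 with no filter; Lecanemab in FIRE mice gave 66 and 9 with no filter. Library totals turned the calls for pool B against A from 4282 higher and 4282 lower into 2529 and 6261, and for pool C against A from 3667 and 3488 into 2030 and 5464.

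Signs turned for genes whose log2 fold changes lay near 0 and that were not called. For Lecanemab in FIRE mice, KIF20B was at 0.0052 with no filter, 0.0095 with the study's cell filter and 0.071 with no pool term, and MCM6 at 0.0055 without cells of high doublet score and 0.064 with no pool term. In intact hosts, without mitotic-gene cells, UBE2C was at 0.10 and CCNB1 at 0.080. KIF20B was at -0.030 between genotypes with no pool term, HELLS at 0.0011 in pool B with DESeq2, and TPX2 in pool C at 0.27 at quantile 0.95 and 0.086 without mitotic-gene cells. KIF20B, which was called between pools C and B, was at -0.0051 there without library 4, and was not called with no filter (0.12) or with the study's cell filter (0.12). With mice left out, the MKI67 share difference in intact hosts was -0.133 to 0.0164 points, and for named genes the ranges that crossed 0 were -0.038 to 0.016 for KIF20B and -0.19 to 0.15 for MCM6 (Lecanemab in FIRE mice), -0.59 to 0.032 for CDT1 and -0.27 to 0.089 for MCM3 (interaction), -0.030 to 0.11 for MCM5 and -0.019 to 0.085 for MCM7 (genotype), -0.091 to 0.12 for HELLS (pool B) and -0.23 to 0.11 for TPX2 (pool C). The cause of these changes was not tested. Of the other alternatives for named genes, 389 kept direction and call, and of those with a mouse left out, 1068 did.

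Depth limits what can be seen for single genes: MKI67 had as few as 18 UMIs in a mouse and CDC20 as few as 3. No paired analysis was possible because mice of different groups share no replicate numbers; mitotic-gene cells were compared with the other cells of the same mouse.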
